A study of Mus musculus with 2 samples.

Results

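The Hox genes are homeobox transcription factor genes that lie in 4 clusters, Hoxa on chromosome 6, Hoxb on chromosome 11, Hoxc on chromosome 15 and Hoxd on chromosome 2. Members were all probe sets that name a single gene with a symbol of the form Hoxa to Hoxd followed by a number, with 1 value per gene taken from its brightest probe set. This gave 37 genes of 19938 measured, namely 10 Hoxa, 9 Hoxb, 9 Hoxc and 9 Hoxd genes. No Hox gene had more than 1 such probe set, so the choice of the brightest did not come into play.

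Both cultures were mouse embryonic fibroblasts infected with an adenovirus expressing LacZ, a bacterial enzyme gene often carried as a control. One was given DMSO, the solvent, and the other 250 nM celastrol, a triterpenoid of the thunder god vine, each for 7 h in DMEM with 1% FBS. RNA of each culture was read on 1 Affymetrix whole-transcript array. The mouse strain, the age of the embryos, the part of the body taken and the number of embryos pooled are not stated in the labels. With 1 array per group there is no replicate, so no test was possible, and every difference below compares one culture with another.

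Hox proteins tell cells where along the head-to-tail axis, and along the limb, they lie. Within a cluster the genes are numbered from 1 to 13 by paralogue group, genes of the same number in different clusters being the closest relatives. Low numbers are switched on early and reach far toward the head, high numbers come on later and stay near the tail and the limb tips. Fibroblasts are known to keep much of the Hox pattern of the site they came from in culture, held by Polycomb proteins at silent genes and Trithorax proteins at active ones. Hox proteins bind DNA together with TALE cofactors of the Pbx, Meis and Pknox families.

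The clusters also hold microRNA genes, and these are shown because miR-10 and miR-196 are known to act on Hox transcripts, Hoxd10 being a known target of miR-10b and Hoxb8 of miR-196. The RefSeq mature sequences (GRCm38.p6) are written 5′ to 3′ with the seed, bases 2 to 8, in capitals. The miR-10 pair shares the seed ACCCUGU and the miR-196 pair the seed AGGUAGU.
mmu-miR-10a-5p, Hoxb cluster, chr11:96317186-96317208, plus strand: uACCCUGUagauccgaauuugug
mmu-miR-10b-5p, Hoxd cluster, chr2:74726074-74726096, plus strand: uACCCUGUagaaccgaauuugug
mmu-miR-196a-5p, Hoxb cluster copy, chr11:96265187-96265208, plus strand: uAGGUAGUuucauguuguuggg
mmu-miR-196b-5p, Hoxa cluster, chr6:52230129-52230150, minus strand: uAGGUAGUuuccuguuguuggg
Counted from the 5′ end, miR-10b-5p differs from miR-10a-5p by U12A and miR-196b-5p from miR-196a-5p by A12C, both outside the seed.

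Levels are log2 values. Probe sets differ in how brightly they hybridise, so a level was read against a background limit and not against that of another gene. The limit was 5.73, the 95th percentile of what 1210 odorant and vomeronasal receptor probe sets read, genes that fibroblasts are not expected to express, and a gene counted as detected when at least 1 array exceeded it. By this limit 25 of the 37 Hox genes were detected, against 69.7% of all measured genes, and 24 exceeded it in both arrays. The clusters differed in how many: 9 of 10 Hoxa genes, 9 of 9 Hoxb genes, 6 of 9 Hoxd genes and 1 of 9 Hoxc genes. The Hoxc gene that counted was Hoxc12, at 5.69 with DMSO and 5.73 with celastrol, which passed by less than 0.01. Next above the limit stood Hoxd3 (5.93 and 5.90), and just below it Hoxd12 (5.69 and 5.45) and Hoxd1 (5.47 and 5.33). In bulk RNA, fewer cells that express a gene and less of its RNA per cell cannot be told apart.

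**Figure D1:**
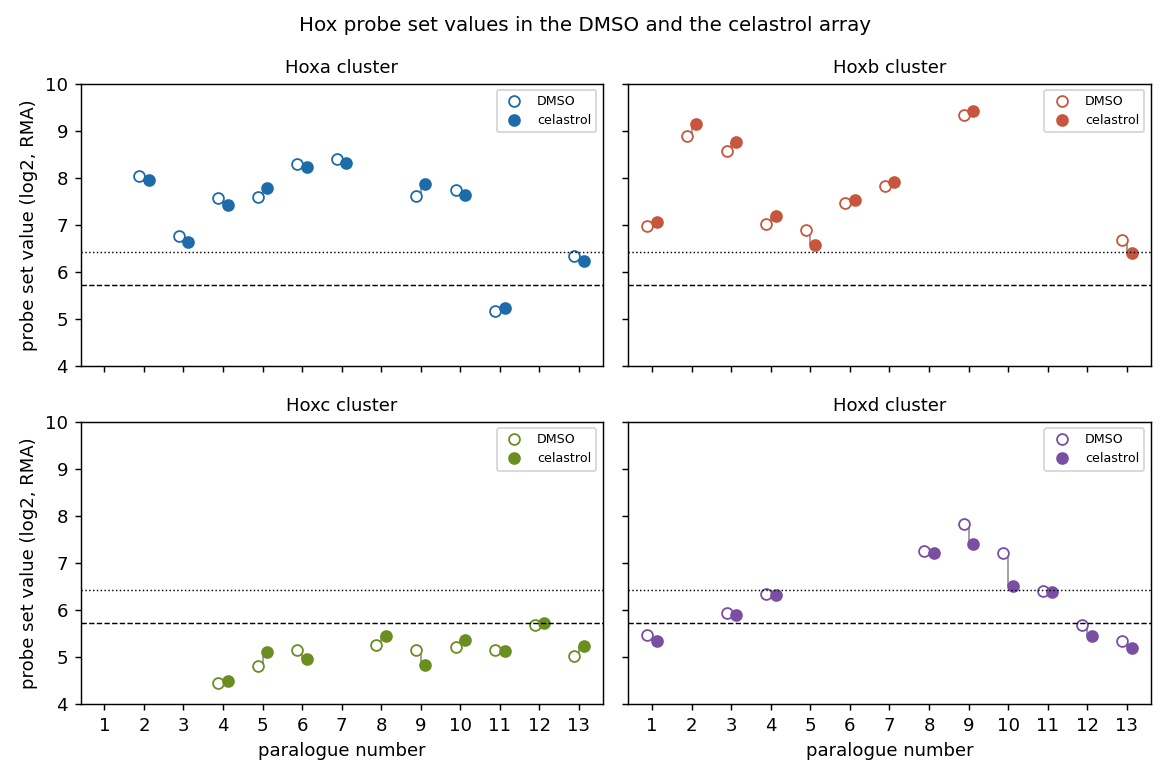
Values of the 37 Hox probe sets (y axis, log2, RMA) by paralogue number (x axis), with 1 panel per cluster, open circles for the DMSO array and filled circles for the celastrol array. The dashed line is the background limit of 5.73 and the dotted line the stricter one of 6.43; all Hoxb genes lie above the dashed line in both arrays, and the Hoxc genes lie below it except for Hoxc12 with celastrol, which sits on it.

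The Hoxa cluster was detected from Hoxa2 through Hoxa10. Hoxa2, which patterns the hindbrain and the second pharyngeal arch, measured 8.04 with DMSO and 7.96 with celastrol. Hoxa5, a gene of the neck and upper chest needed in lung development, measured 7.58 and 7.78, and Hoxa7, a trunk gene, 8.40 and 8.32. The remaining genes of that stretch, Hoxa3, Hoxa4, Hoxa6, Hoxa9 and Hoxa10, all exceeded the limit in both arrays, Hoxa3 with values of 6.76 and 6.64. At the tail end of the cluster, Hoxa11, which shapes the forearm and shank, was not above the limit (5.17 and 5.23), whereas Hoxa13, the hand and foot gene, read 6.33 and 6.24.

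All 9 measured Hoxb genes were above the limit in both arrays. Hoxb9, a gene of the rib-bearing trunk, measured 9.34 with DMSO and 9.42 with celastrol. Hoxb2, active in the hindbrain and neck, measured 8.88 and 9.14. Hoxb3 (8.57 and 8.75), Hoxb7 (7.82 and 7.91), Hoxb6 (7.46 and 7.53) and Hoxb4 (7.03 and 7.19) were also above the limit. Hoxb1, a hindbrain gene at one end of the cluster, read 6.97 and 7.05, Hoxb5 6.89 and 6.57, and Hoxb13, the gene of the tail end, 6.69 and 6.40.

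In the Hoxd cluster 6 of 9 genes passed the limit, all of them in both arrays. Hoxd8 measured 7.26 with DMSO and 7.22 with celastrol, Hoxd9 7.82 and 7.40, and Hoxd10 7.20 and 6.50. Hoxd9 and Hoxd10 act in the lower trunk and in the upper limb segments. Hoxd11 read 6.40 and 6.39 and Hoxd4 6.34 and 6.31, while Hoxd1, Hoxd12 and Hoxd13, at the ends of the cluster, were not above the limit.

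The Hoxc genes ran from 4.46 (Hoxc4) to 5.69 (Hoxc12) with DMSO and from 4.50 to 5.73 with celastrol. This held for Hoxc6 (5.16 and 4.96), Hoxc8 (5.27 and 5.44) and Hoxc9 (5.15 and 4.84), which belong to the chest, and for Hoxc10 (5.22 and 5.36), a hindlimb and lumbar gene. Their nearest relatives on other clusters were detected: of paralogue group 9, Hoxa9, Hoxb9 and Hoxd9 exceeded the limit in both arrays and Hoxc9 in neither. Of paralogue group 4, Hoxa4, Hoxb4 and Hoxd4 exceeded it and Hoxc4 did not. By region of the axis, 6 of 7 genes of groups 1 to 3, 10 of 14 of groups 4 to 8 and 9 of 16 of groups 9 to 13 were detected. Of the 9 genes of groups 11 to 13 alone, 4 were detected. The share among all measured genes was 69.7%. All measured Hoxc genes are of groups 4 to 13, so these counts mix region with cluster. In groups 4 to 8 every gene that was not detected was a Hoxc gene.

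The limit has to be read with care for values up to about 7.4, which is not a firm bound. Some genes not expected in fibroblasts also exceeded it, such as Nanog, a pluripotency factor (6.62 with DMSO and 6.35 with celastrol), Cdx1, an axial homeobox gene of the early embryo and gut (6.91 and 6.95), and Evx2, the neighbour of Hoxd13 (7.14 and 7.02). Otx1, a head factor (7.37 and 7.19), and Egfl7, an endothelial marker (7.22 and 7.05), also exceeded the limit. Myl4, a muscle marker (7.47 and 7.52), and Pax3, a neural crest and muscle precursor gene (7.37 and 7.65), reached higher values still. Hoxa3, Hoxa13, Hoxb1, Hoxb5, Hoxb13, Hoxd3, Hoxd4 and Hoxd11 read between 5.90 and 7.05 in both arrays. Hoxb4 (7.03 with DMSO) and Hoxd10 (6.50 with celastrol) came as low in 1 array. Their other values, 7.19 for Hoxb4 and 7.20 for Hoxd10, lay under that of Otx1 with DMSO. Both values of Hoxd8 (7.26 and 7.22) did too. Hoxa4 (7.57 and 7.42) and Hoxb6 (7.46 and 7.53) lay under the value of Pax3 with celastrol in both arrays. Hoxa5, Hoxa9, Hoxa10 and Hoxd9 did so in 1 array. Whether such values come from transcript or from probe background was not tested. With a limit of 6.43, the 99th percentile of the receptor values, 20 Hox genes were detected, made up of 8 Hoxa, 9 Hoxb, 0 Hoxc and 3 Hoxd genes, the last being Hoxd8, Hoxd9 and Hoxd10.

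The cells carried the markers of mesenchyme: 12 of 13 fibroblast and mesenchyme markers were detected, among them Vim (13.85 with DMSO and 13.95 with celastrol), Fn1 (13.42 and 13.47) and Col1a1 (12.16 and 11.69), with Lum the exception. Of these 12, 4 were higher and 8 lower with celastrol, with a median difference of -0.20 and S100a4 lowest at -0.88. Of 8 macrophage and leukocyte markers 3 were detected, and these had higher values with celastrol, Cd68 by 1.47, Cd14 by 0.71 and Csf1r by 0.26 on the log2 scale, whereas Ptprc, Itgam, Adgre1, Aif1 and Lyz2 were not above the limit. Of 6 muscle markers 4 were detected and all 4 were higher, Tnnt2 by 0.87, Tnnc1 by 0.77, Myod1 by 0.34 and Myl4 by 0.05. Detected were also 4 of 7 endothelial (3 higher, 1 lower), 4 of 5 epithelial (2 higher, 2 lower) and 4 of 5 neural markers (2 higher, 2 lower), and 1 of 3 pluripotency or germ cell markers, Nanog, which was lower. Apart from Map2 and Nes, the detected endothelial, epithelial and neural markers fell in the range where the limit needs care. So did Csf1r, Myod1 and Thy1, and with DMSO also Cd68 (6.86), Cd14 (6.94) and Tnnc1 (7.00). For comparison, 69.7% of all measured genes were detected, and 48.1% of detected genes were higher. Whether cells other than fibroblasts were present, and their part in the Hox values, was not tested.

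The difference between the cultures, celastrol minus DMSO on the log2 scale, was small for most Hox genes. None of the 25 detected Hox genes was at least 2-fold higher and none at least 2-fold lower, where 1.89% of 13899 detected genes were higher and 0.662% lower by that much. At 1.5-fold, 0 were higher against 6.19% of detected genes, and 1 was lower, Hoxd10, against 4.68%. The median difference of the detected Hox genes was -0.03 with a range from -0.70 to 0.26, beside a median of -0.01 over all detected genes. Their median absolute difference was 0.09, compared with 0.19 for the 9583 detected genes in the same range of mean level. For scale, receptor probe sets, taken here as background, had differences from -0.42 to 0.41 over their central 95%. Outside that span lay 1 of 25 detected Hox genes and 21.7% of all detected genes. Across the 37 Hox genes the arrays correlated with Pearson r = 0.987, and across all 19938 genes with 0.988, both over genes, which share their array and are not replicates.

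**Figure D2:**
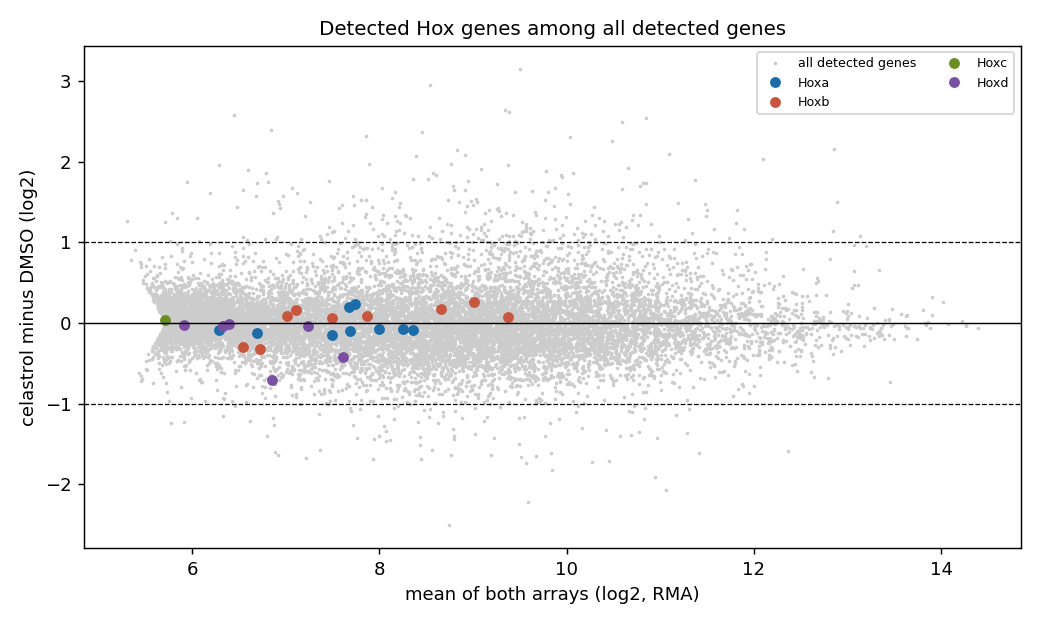
Difference between celastrol and DMSO (y axis, log2) against the mean of both arrays (x axis, log2, RMA) for the 13899 detected genes in grey and the 25 detected Hox genes in colour by cluster. Dashed lines mark a 2-fold difference; all Hox genes lie between them, and Hoxd10 at -0.70 is the lowest.

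Hoxd10 had the largest difference of the Hox genes. Its value was 7.20 with DMSO and 6.50 with celastrol, 1.63-fold lower. Of the 2293 detected genes whose mean level lay within 0.5 of that of Hoxd10, 1.57% had a difference as low. Hoxd9, the adjacent gene, was 0.41 lower, or 1.33-fold, a size that 13.1% of 2187 detected genes of like level reached or passed downward, and it lay just inside the span of the receptor probe sets. The other 7 Hoxd genes were lower by smaller amounts, from -0.01 for Hoxd11 to -0.23 for Hoxd12. Thus 9 of 9 measured Hoxd genes, and 6 of 6 detected ones, had a lower value with celastrol, where 51.9% of all detected genes did. Of these, Hoxd3, Hoxd4, Hoxd8 and Hoxd11 differed by less than 0.05, and subtracting the median difference of all probe sets turned Hoxd11 to 0.0096.

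**Figure D3:**
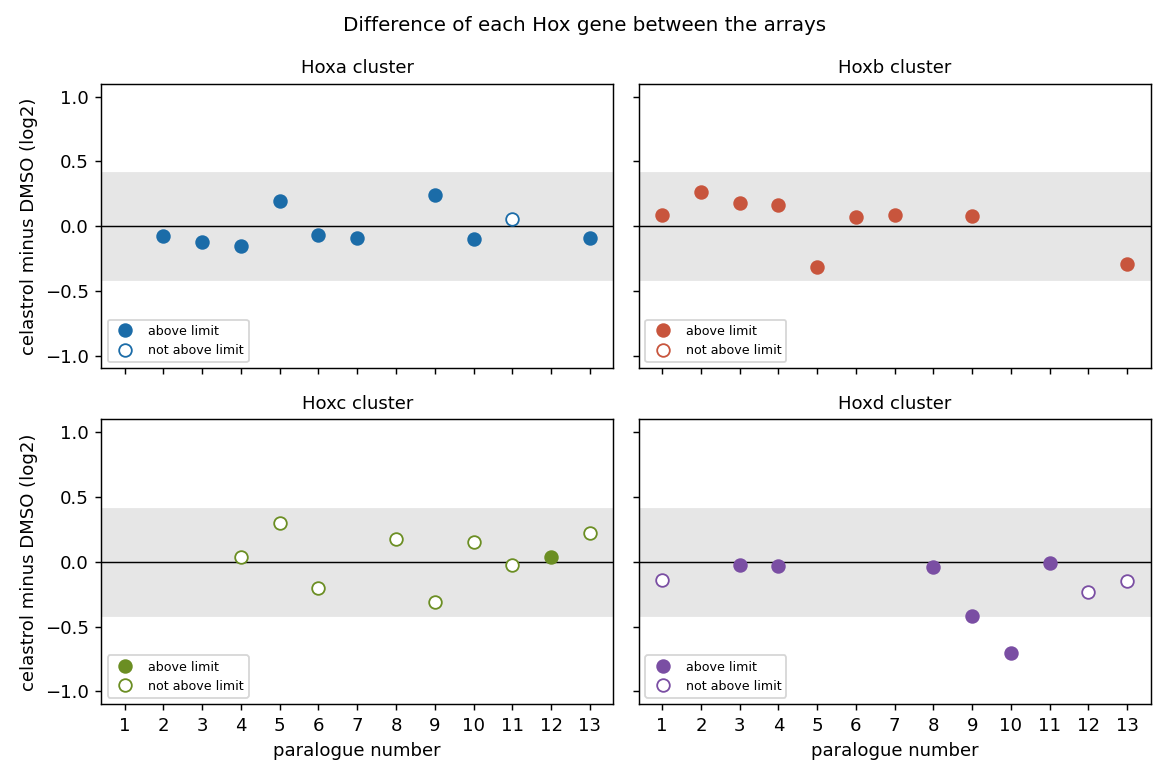
Celastrol minus DMSO (y axis, log2) for each of the 37 Hox genes by paralogue number (x axis), with 1 panel per cluster, filled circles for detected genes and open circles for genes not above the limit. The grey band is the central 95% of the receptor probe sets, -0.42 to 0.41; of the Hox genes only Hoxd10 lies outside it.

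Upstream sequence of the adjacent pair with the largest differences is shown here as context. Each is the stretch of 250 bases before the RefSeq start site (GRCm38.p6, plus strand), with matches to searched motifs in capitals. Hoxb5, the next by size of difference, had no entry in the table used.
Hoxd10, chr2:74691641-74691890: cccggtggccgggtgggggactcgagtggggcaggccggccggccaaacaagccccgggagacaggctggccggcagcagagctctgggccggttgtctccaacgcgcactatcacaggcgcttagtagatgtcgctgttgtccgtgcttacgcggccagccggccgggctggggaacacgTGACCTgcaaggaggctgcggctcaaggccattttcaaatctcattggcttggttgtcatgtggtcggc
Hoxd9, chr2:74697513-74697762: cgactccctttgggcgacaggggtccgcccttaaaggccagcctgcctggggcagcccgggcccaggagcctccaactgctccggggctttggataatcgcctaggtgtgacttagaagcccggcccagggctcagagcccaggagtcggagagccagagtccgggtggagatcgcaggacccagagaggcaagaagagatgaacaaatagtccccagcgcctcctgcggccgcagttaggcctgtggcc
Both are rich in G and C, 65.6% for Hoxd10 and 65.2% for Hoxd9, beside a median of 52.4% over 32851 promoter entries of that length and 59.2% over the 23 entries of 21 Hox genes. The capitals in Hoxd10 mark the core hexamer AGGTCA of retinoic acid receptor sites, here on the minus strand and starting 69 bases before the start site. That hexamer, searched on both strands, was in 6 of 23 Hox entries (Hoxb4, Hoxc4, Hoxd3, Hoxd4, Hoxd8 and Hoxd10), or 26.1%, and in 14.0% of all entries. GAANNTTC, the core of a heat shock element, was in 0 of 23 Hox entries and 6.69% of all. TGACNNNGC, the core of an antioxidant response element, was in 1 Hox entry (Hoxa6) and 10.2% of all, and TGATTNAT, a Hox-Pbx type site, in 2 (Hoxa2 and Hoxd11) and 2.82% of all. These are matches of letters in these windows only, and some Hox genes have further start sites. Of Hoxb only Hoxb1 and Hoxb4 had an entry, and of Hoxc only Hoxc4. The shares and the G and C median of the Hox entries therefore describe mainly Hoxa and Hoxd.

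In the Hoxb cluster higher values with celastrol were seen for 7 of 9 genes, where 48.1% of all detected genes were higher, with a median of 0.08. Hoxb2 was highest at 0.26, a 1.20-fold difference, followed by Hoxb3 at 0.18 and Hoxb4 at 0.17. The next genes, Hoxb1, Hoxb6, Hoxb7 and Hoxb9, differed by 0.07 to 0.09. Hoxb5 (-0.32) and Hoxb13 (-0.29) were lower. These 9 genes all lay within the span of the receptor probe sets. A further probe set of the cluster, which names both Hoxb8 and Hoxb7 and so belongs to no member, measured 7.63 with DMSO and 8.35 with celastrol, a difference of 0.72 that lies outside that span, while the probe set naming Hoxb7 alone differed by 0.08.

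In the Hoxa cluster 7 of 9 detected genes were lower, where 51.9% of all detected genes were, and 2 higher, with a median of -0.09. The higher ones were Hoxa9 (0.24, or 1.18-fold) and Hoxa5 (0.20), and the lowest was Hoxa4 (-0.15). Hoxa10, a paralogue of Hoxd10, stood at -0.10, while Hoxc10, under the limit in both arrays, stood at 0.15. The Hoxc values, at or under the limit, differed by between -0.31 (Hoxc9) and 0.30 (Hoxc5), 6 higher and 3 lower, and no fold is given for values under the limit.

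By paralogue number the directions were mixed. Over all detected genes 48.1% were higher and 51.9% lower. Among detected genes of groups 1 to 3, 3 were higher and 3 lower, with a median of 0.03. Groups 4 to 8 had 4 higher and 6 lower, with a median of -0.04, and groups 9 to 13 had 3 higher and 6 lower, with a median of -0.09. Group 9 was split, Hoxa9 (0.24) and Hoxb9 (0.08) being higher and Hoxd9 (-0.41) lower. Group 5 was split as well, with Hoxa5 at 0.20 and Hoxb5 at -0.32. The differences between clusters and between paralogue groups were not tested.

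Other transcripts of the clusters were measured too. The array reads the genomic stretch of a microRNA gene and not the mature molecule. Mir10b, in the Hoxd cluster, was not above the limit (3.73 with DMSO and 3.77 with celastrol), nor was Mir10a (4.20 and 4.03), Mir196a-2 (4.94 in both) or Mir196b (5.27 and 5.15). Mir196a-1, in the Hoxb cluster, read 6.28 and 6.66, a difference of 0.39, and Mir615, in the Hoxc cluster, 7.49 and 7.56. Of protein-coding genes bordering the clusters, Mtx2, beyond Hoxd1, differed by -0.10, Lnpk, beyond Evx2 at the other end, by 0.19, and Skap2, beside Hoxa, by -0.06. Snx10, further along on the Hoxa side, was higher by 0.54, and Cbx5, a heterochromatin protein gene near Hoxc, lower by 0.35. Of 24 listed neighbours 17 were measured and 12 detected, 6 higher and 6 lower, none by 2-fold. Of all measured genes 69.7% were detected. Among all detected genes 48.1% were higher, and 1.89% were higher and 0.662% lower by 2-fold or more.

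The TALE genes, which include the DNA-binding partners of Hox proteins, held a pair of differences past 2-fold. Of 10 measured TALE genes 9 were detected, where 69.7% of all measured genes were. Of these 9, 3 were higher and 6 lower, where 51.9% of all detected genes were lower, and their median was -0.18. By 2-fold or more, 2 were higher, against 1.89% of all detected genes, and 0 lower, against 0.662%. Pknox1, which encodes the Hox and Pbx partner PREP1, measured 7.68 with DMSO and 9.53 with celastrol, 3.59-fold higher. Tgif1, a TALE repressor of TGF-beta and retinoid responses rather than a Hox partner, measured 10.66 and 11.95, 2.44-fold higher. The Meis and Pbx genes went less far: Meis3 stood at -0.60, Meis2 at -0.42, Pbx3 at -0.26, Pbx2 at -0.18, Pbx4 at -0.13 and Meis1 at 0.17.

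Polycomb genes, whose products keep Hox genes silent, were detected for 28 of 28 measured of 30 listed. The share detected over all measured genes was 69.7%. Of the 28, 19 were higher, or 67.9% where 48.1% of all detected genes were, and 9 lower, with a median of 0.14. None differed by 2-fold in either direction, where 1.89% of all detected genes were higher and 0.662% lower by that much. Pcgf5, a subunit of a variant PRC1, was highest at 0.65 and Phf1, a PRC2 accessory protein, followed at 0.60. Phf19, also a PRC2 accessory protein, was lowest at -0.85 (8.28 with DMSO and 7.44 with celastrol), and Ezh1, a PRC2 methyltransferase, stood at -0.52. Core PRC2 genes differed less, with Ezh2 at 0.25, Suz12 at -0.04 and Eed at -0.20, although the dimmer second probe set of Eed, under the limit, gave 0.12.

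On the opposing side, 13 of 13 listed Trithorax and H3K27 demethylase genes were detected, 5 higher and 8 lower, with a median of -0.12 and none past 2-fold. Of all measured genes 69.7% were detected. Among all detected genes 51.9% were lower, and 1.89% were higher and 0.662% lower by 2-fold or more. Kdm6b, a demethylase that removes the Polycomb mark, measured 8.72 with DMSO and 9.67 with celastrol, 1.93-fold higher. Its relative Kdm6a stood at 0.07. Men1, which encodes menin, a partner of the MLL methyltransferases, was 1.65-fold lower at -0.72, and Kmt2b, one of those methyltransferases, stood at -0.53. Kmt2a, the family member best known for keeping Hox genes active, stood at -0.12.

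Retinoic acid is a known inducer of Hox genes of low paralogue number. Of 18 listed genes of its pathway 17 were measured and 12 detected, 4 higher and 8 lower, with a median of -0.06 and none past 2-fold. Over all measured genes 69.7% were detected. Over all detected genes 51.9% were lower, and 1.89% were higher and 0.662% lower by 2-fold or more. Rarg, a receptor of retinoic acid, measured 9.68 and 10.26, a difference of 0.58, and Rdh10, which makes retinaldehyde, measured 10.35 and 9.82, a difference of -0.53. Dhrs3, which reverses that step, stood at -0.38. The retinaldehyde dehydrogenases Aldh1a1 and Aldh1a2 were not above the limit, and Aldh1a3 read 5.69 and 5.81. Of 9 listed axial regulators and ParaHox genes 8 were measured and 6 detected, with a median of -0.01. Egr2, a hindbrain regulator of Hoxa2 and Hoxb2 that is also an immediate early gene, measured 7.05 and 8.57, 2.87-fold higher, whereas Hoxa2 and Hoxb2 differed by -0.08 and 0.26.

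**Figure D4:**
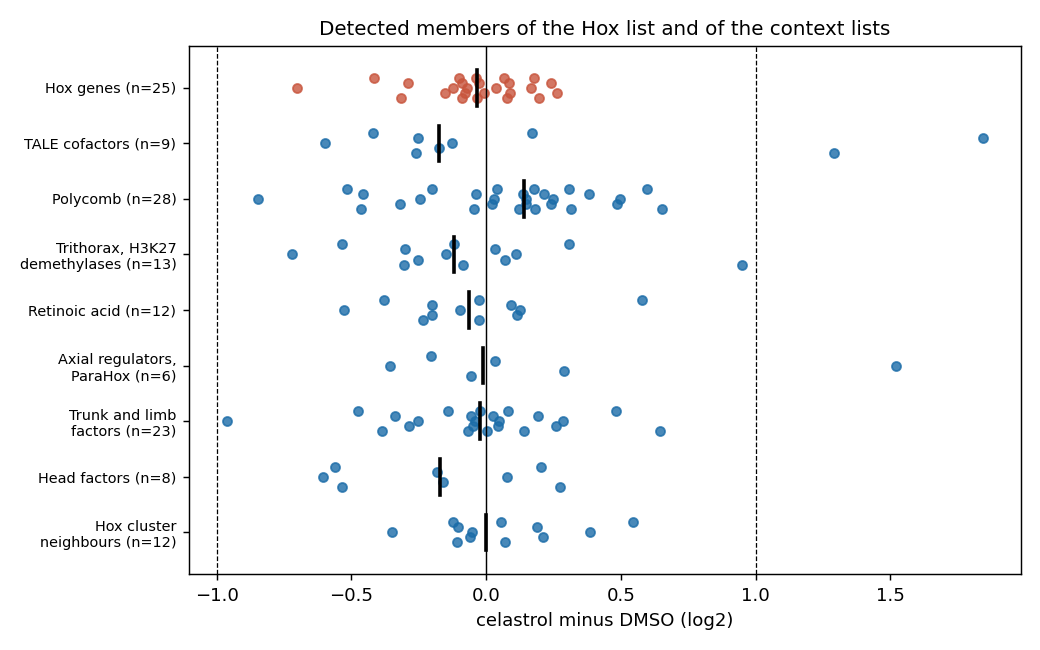
Celastrol minus DMSO (x axis, log2) for the detected members of the Hox list (top, red) and of 8 lists of related genes (blue), with the number detected after each name and a black bar at each median. Dashed lines mark a 2-fold difference, which Pknox1, Tgif1 and Egr2 exceed and no Hox gene does.

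Other transcription factors of positional identity were measured as well. Of 24 listed trunk and limb factors 24 were measured and 23 detected, 11 higher and 12 lower, with a median of -0.02 and none past 2-fold. The share detected over all measured genes was 69.7%. The shares over all detected genes were 51.9% lower, and 1.89% higher and 0.662% lower by 2-fold or more. Prrx1, a limb and lateral plate mesenchyme factor, measured 12.36 with DMSO and 12.03 with celastrol, and Tbx15, a factor of trunk and limb mesenchyme, 11.03 in both. Tbx5, the forelimb gene, was not above the limit (4.67 and 4.66), and the hindlimb genes Pitx1 and Tbx4 read 6.71 and 6.76 and 6.15 and 6.13, low values for which the caution on the limit holds too. Prrx2, the relative of Prrx1, had the lowest difference of that list at -0.96, 1.95-fold lower (10.55 and 9.59), followed by Tbx18 (-0.48). Irx3 was highest at 0.65 and Twist1 followed at 0.48.

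Of 14 listed head factors 11 were measured and 8 detected, 3 higher and 5 lower, with a median of -0.17. The share detected among all measured genes was 69.7%, and the share lower among all detected genes was 51.9%. Otx2, a gene of the forebrain and midbrain, was not above the limit (5.16 and 4.91), nor were Alx1 and Lhx8. The distal-less genes of the jaw and limb had lower values with celastrol for Dlx6 (-0.61), Dlx1 (-0.56) and Dlx5 (-0.54), while Dlx2 stood at 0.20. Pax3, a neural crest and muscle precursor gene, was highest at 0.28.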

How the data were processed

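The values were deposited by the authors on a log2 scale; RMA made them, per the submitters' processing notes, with version, settings and jointly normalized arrays not given in the sources used here. Differences of dim probe sets are understated by RMA. Of 35556 probe sets, 21789 named 1 gene in GEO's platform annotation, 1621 several and 12146 none, and only the first kind was used. Symbols were updated through the Entrez identifier (21698 matched to the RefSeq table of GRCm38.p6). Other columns of values numbered 0. Scanner files were not used here, and the number of arrays limits the precision.

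The members, context lists and alternatives were chosen with earlier results of these data known. Named genes are all Hox genes but Hoxc11 and Hoxc13. Per list they include some, not all, of the members with the highest or lowest differences or the highest values. Further genes were named for their known role. The fold is 2 to the power of the log2 difference. The calculation was tested on simulated data, a copy of the DMSO array with fixed shifts added and no noise. That checks the arithmetic and not the spread between cultures. Python 3.11.15, numpy 2.4.6, pandas 2.3.3, statsmodels 0.14.6 and matplotlib 3.10.9 were used.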

Additional observations from a re-analysis of the deposited data

Results flagged for a closer look

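A probe set that names both Hoxb8 and Hoxb7 entered no comparison because it does not name a single gene. It measured 7.63 with DMSO and 8.35 with celastrol, a difference of 0.72 on the log2 scale or 1.65-fold, and is listed because data outside the comparisons showed a signal above the control array. It lies above the span of -0.42 to 0.41 of the receptor probe sets. Of all detected genes 4.14% had a difference as high. The probe set that names Hoxb7 alone differed by 0.08. Signal of Hoxb8 and Hoxb7 cannot be told apart in the shared probe set, and the difference has no replicate check.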

How the results depend on the processing

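Alternatives were a detection limit at the 99th percentile of the receptor probe sets or at the median of all probe sets (6.34), no limit, the mean over probe sets naming the same gene, quantile normalization, centring on the median difference, removal of a lowess trend (fraction 0.3), thresholds of 1.5-fold and 3-fold, and, chosen after seeing the data, a limit passed in both arrays. The number of detected Hox genes ran from 20 to 25. Hox genes at least 2-fold lower numbered 0 under each setting, and the 1.5-fold threshold gave 1, Hoxd10. No Hox gene differed by less than -0.70, so a change of limit or the 3-fold threshold could not alter that 0. Only quantile normalization, centring and the lowess trend could have moved it. The median difference of the detected Hox genes ran from -0.05 to -0.02. Of 148 recalculated differences of single Hox genes 1 changed sign, that of Hoxd11. Those from the mean over probe sets could not change, because no Hox gene had more than 1 such probe set. Centring moved every difference by the same 0.0159, so it could turn only genes within that distance of 0. The Hoxd median, -0.04 over 6 genes, became -0.41 over the 3 genes that passed the 99th percentile, and the single Hoxc gene was lost under 5 settings. No paired analysis was possible because each group has 1 array.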
